A study of Mus musculus with 4 samples.

Results

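CD8 T cells were 654 of 98560 barcodes kept from single-cell sequencing of mouse ascites. Ascites is the fluid that collects in the peritoneal cavity around an ovarian tumor. The members were chosen by measured counts: a barcode in which 500 to 4800 genes were detected, with mitochondrial genes giving no more than 15% of its unique molecular identifiers (UMIs, each marking 1 captured transcript), had at least 1 UMI of Cd3e, Cd3d or Cd3g, at least 1 of Cd8a or Cd8b1, and none of Cd4, Trdc, Cd163l1, Cd79a, C1qa or C1qb. The study injected siRNA in nanoparticles into female FVB mice carrying Br-Luc ovarian cancer cells (p53-/-; brca1-/-; myc; Akt-myr) and collected ascites 6 weeks after tumor cell injection. The control group, titled siCont, received a scrambled siRNA, and the group titled siFXR1-LNA an siRNA against Fxr1. Per the study, both siRNAs carry locked nucleic acids. Each group gave 2 libraries. The study's methods leave a siFXR1-LNA library with fewer reads out of its analysis and do not name it, so both are used here, and siFXR1-LNA replicate 2 had the fewer barcodes in the files (17309 against 54665). Both groups carried the same tumor and the same carrier, and the ascites of several mice was pooled into each library, so the spread between libraries is a spread between pools. The comparison asks how an siRNA aimed at the tumor cells is accompanied by changes in these lymphocytes. The 4 libraries gave 115 and 369 members in siCont replicates 1 and 2 and 72 and 98 in siFXR1-LNA replicates 1 and 2, and 4 values in a row below follow this order of libraries.

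CD8 T cells recognise peptides that MHC class I molecules show on the surface of other cells, and kill the cell that shows a foreign or mutated one. Resting cells recirculate through lymph nodes under the transcription factors Lef1 and Tcf7 and the homing receptor Ccr7. Activated cells switch on granule genes (granzymes, perforin, Nkg7) and chemokines such as Ccl5, and memory cells can keep features of both. Ascites brings them beside tumor cells, macrophages and other lymphocytes in 1 fluid.

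The label was checked on genes the rule did not use. Over 15 such T cell genes, at least 2 UMIs were found in 95.7% and 99.5% of members of siCont replicates 1 and 2 and in 83.3% and 98.0% of those of siFXR1-LNA replicates 1 and 2. B cells of the same libraries (Cd79a with Cd79b or Ms4a1, no Cd3 and no C1q) are set beside the members throughout. They should lack these T cell genes, and their shares were 9.0%, 17.6%, 2.56% and 6.38%. Lck, the kinase that starts T cell receptor signalling, stood at 305, 331, 185 and 247 counts per 1000000 UMIs (CPM) in members and at 14.6, 13.7, 10.7 and 22.3 CPM in B cells. Themis, a T cell signalling adaptor, stood at 226, 251, 77.2 and 154 CPM against 8.42, 4.06, 0 and 0. Members were T cells by these genes in all 4 libraries, least clearly in siFXR1-LNA replicate 1.

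That library stood apart at the threshold of the rule too. Members with exactly 1 Cd3 and exactly 1 Cd8 UMI, just inside it, numbered 5, 12, 19 and 7 in the 4 libraries, 26.4% of members in siFXR1-LNA replicate 1 and 3.25% to 7.14% elsewhere. At least 2 UMIs of each kind were held by 59.1%, 67.2%, 22.2% and 58.2% of members. Cd8b1 alone was seen in 63, 179, 39 and 49 members, Cd8a alone in 14, 39, 19 and 12, and both in 38, 151, 14 and 37. Just outside the rule, 593, 636, 443 and 314 barcodes had a Cd3 UMI with no Cd8, Cd4, Trdc or Cd163l1 UMI, and 4, 11, 0 and 2 would have been members but for 1 Cd4 UMI. Among B cells before any Cd3 was excluded, 0.635%, 0.879%, 0% and 0% held both a Cd3 and a Cd8 UMI.

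The libraries differed in depth and in free RNA. They held 78179267 to 113606837 UMIs, and members had medians of 2547, 3245, 2452 and 3193 UMIs. Hemoglobin made up 13.9%, 14.3%, 7.43% and 2.29% of members' UMIs. No barcode was a member in 2 libraries, and 73 members shared a barcode sequence with a kept barcode of another library. Fxr1, the siRNA target, was not lower in the libraries labelled siFXR1-LNA: over all barcodes it stood at 57.3 and 36.6 CPM in siCont and at 104 and 74.4 CPM in siFXR1-LNA. In CD8 T cells it stood at 70.5 and 39.2 against 97.8 and 69.8 CPM (log2 fold change 0.57 ± 0.40 SE, edgeR adjusted p = 0.733). The groups overlapped in CD8 T cells. Below, siCont and siFXR1-LNA therefore stand for the libraries so labelled.

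CD8 T cells were not a larger share of the kept barcodes in the libraries labelled siFXR1-LNA. They made up 0.572% (exact 95% binomial interval 0.473% to 0.686%) and 4.06% (3.66% to 4.49%) in siCont and 0.134% (0.105% to 0.168%) and 0.631% (0.513% to 0.769%) in siFXR1-LNA; these intervals cover counting error only. The siCont libraries differed from each other more than siCont replicate 1 did from either siFXR1-LNA library. The kept barcodes numbered 20103 and 9090 in siCont and 53842 and 15525 in siFXR1-LNA. A kept barcode is not shown to hold a cell, and the study kept far fewer cells. These are therefore shares of barcodes and not of cells. With at least 1000 genes per barcode the shares were 0.766% and 4.77% in siCont and 0.512% and 0.965% in siFXR1-LNA. With at least 500 genes, as in the rule, the results were as follows. Means were 2.32% ± 2.47 (SD, n = 2) and 0.382% ± 0.352 (SD, n = 2), with a two-sided exact permutation p of 0.667 (adjusted over 5 share tests, 1).

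Against CD4 T cells, chosen by the same rule with Cd4 present and Cd8 absent, their share was higher in siFXR1-LNA. CD8 cells were 42.9% (interval 36.9% to 49.1%) and 47.6% (44.0% to 51.1%) of the CD8 and CD4 cells together in siCont, and 74.2% (64.3% to 82.6%) and 69.0% (60.7% to 76.5%) in siFXR1-LNA. The groups did not overlap: 45.2% ± 3.28 (SD, n = 2) and 71.6% ± 3.69 (SD, n = 2), a difference of 26.4 percentage points. The exact permutation p was 0.333, the smallest that 2 libraries against 2 can give (adjusted 0.833). The siFXR1-LNA shares rest on 25 and 44 CD4 cells. A share of this kind moves with either cell type, and more CD8 cells cannot be told apart here from fewer CD4 cells. With at least 2 UMIs of each marker pair the shares were 68.7% and 68.7% against 84.2% and 89.1%, a difference of 17.9 points.

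**Figure D1:**
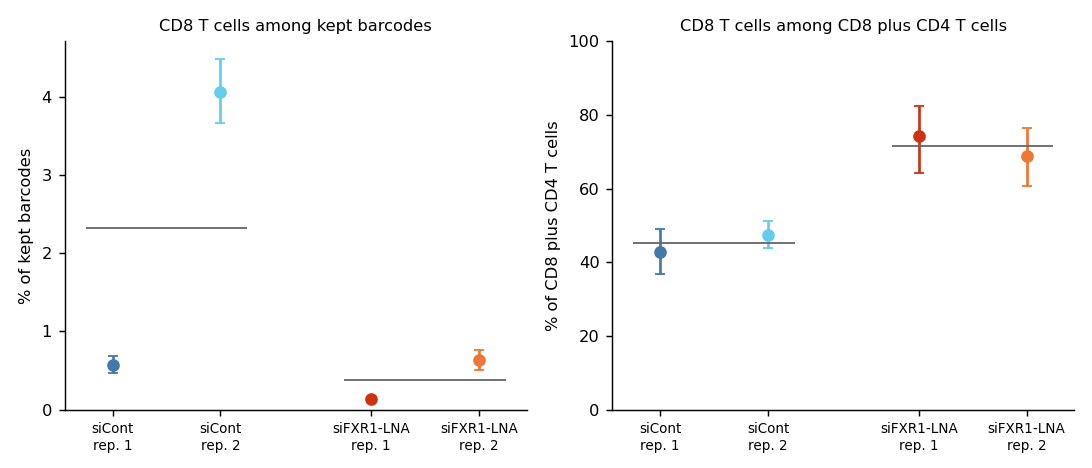
CD8 T cells as a percentage of kept barcodes (left) and of CD8 plus CD4 T cells (right), 1 point per library with its exact 95% binomial interval and a line at each group mean. The left panel overlaps between groups, with siCont replicate 2 at 4.06% far above the other 3 libraries. In the right panel both siFXR1-LNA libraries, at 74.2% and 69.0%, lie above both siCont libraries.

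The naive cell factor Lef1 and effector transcripts were both common in CD8 T cells. Each cell's counts were reduced at random to 1000 UMIs so that libraries could be compared, without 2, 2, 0 and 1 members that were shallower. A UMI of Lef1 was found in 23%, 46.6%, 37.5% and 39.2% of members, so the siFXR1-LNA values lay between the siCont values. CD4 T cells showed 14.9%, 24.9%, 16% and 36.4%, and B cells at most 0.916%.

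A UMI of Ccl5, Nkg7, Gzma, Gzmb, Gzmk or Prf1 was found in 69.0%, 50.4%, 62.5% and 62.9% of members after thinning, where the siFXR1-LNA values lay between those of siCont (59.7% and 62.7% on average, exact permutation p = 1). Before thinning the shares were 75.7%, 69.6%, 77.8% and 82.7%, so both siFXR1-LNA libraries lay above both siCont libraries (72.6% and 80.2% on average, exact permutation p = 0.333, the smallest possible). CD4 T cells showed 31.8%, 29.4%, 24.0% and 22.7%, and B cells 1.97%, 2.23%, 6.11% and 5.6%. Most of this was Ccl5, a chemokine for T cells and monocytes, with a UMI in 61.1%, 32.7%, 47.2% and 54.6% of members, and Nkg7, a cytotoxic granule protein, with 49.6%, 33.2%, 36.1% and 28.9%. The killing enzymes themselves were rare. Gzmb was found in 2.65%, 3.00%, 1.39% and 2.06% of members, Gzmk in 7.96%, 5.18%, 2.78% and 7.22%, and the pore former Prf1 in 2.65%, 2.18%, 0% and 3.09%. Before thinning Prf1 was found in 4.35%, 4.88%, 4.17% and 7.14% of members, so the 0% of siFXR1-LNA replicate 1 is a value of the reduced counts and not an absence of the gene.

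In both thinned shares the siCont libraries differed from each other more than the groups did: siCont replicate 1 had the lowest share with Lef1 and the highest with an effector transcript, and siCont replicate 2 the reverse. Depth differed with them, at median UMI counts of 2547 and 3245, and thinning evens out depth but not the mix of free RNA. Its part in these shares was not tested.

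**Figure D2:**
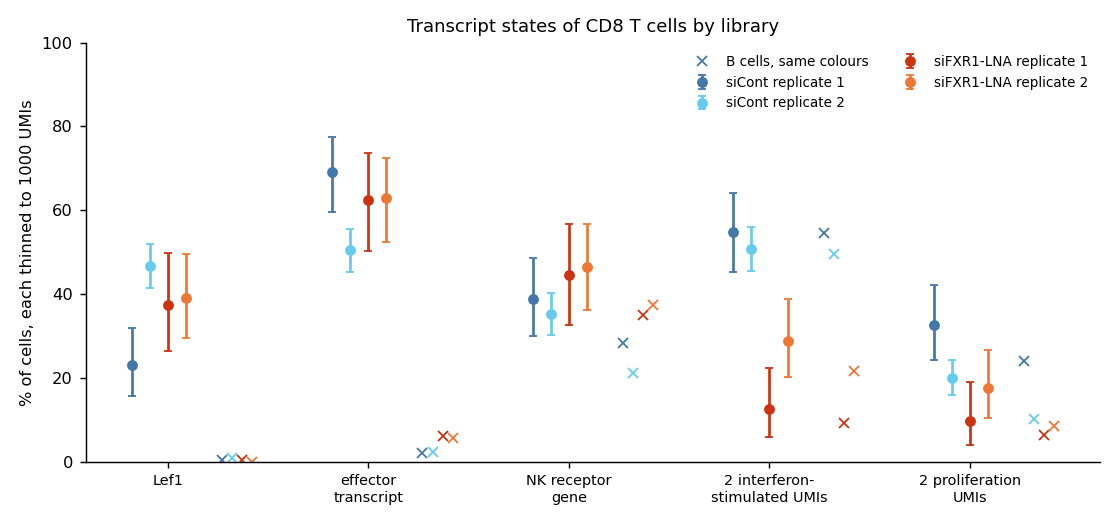
Share of CD8 T cells (circles with exact 95% binomial intervals) and of B cells (crosses) holding each kind of transcript, in percent of cells thinned to 1000 UMIs, 1 colour per library. For effector transcripts CD8 T cells reach 50.4% to 69.0% where B cells stay at 1.97% to 6.11%, while for interferon-stimulated UMIs the circles and crosses of a library lie close together.

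Proliferation transcripts were counted as at least 2 UMIs over 16 genes such as Mki67, Top2a and Pcna. Tubb5 and Hmgb2 were the highest of them by level, so the share need not be one of dividing cells. Before thinning it averaged 71.8% in siCont and 52.0% in siFXR1-LNA. After thinning it was 32.7%, 19.9%, 9.72% and 17.5% of members. The siFXR1-LNA libraries were lower without overlap, by 12.7 percentage points (exact permutation p = 0.333, the smallest possible, adjusted 0.833). B cells of the same libraries followed the same order at 24.0%, 10.1%, 6.43% and 8.62%. UMIs of the NK receptor list were found in 38.9%, 35.1%, 44.4% and 46.4% of members and in 28.3%, 21.3%, 35.0% and 37.5% of B cells. Its highest genes by level in members were Fcer1g and Tyrobp, which are signalling adaptors and not receptors. Fcer1g alone stood at 220, 202, 396 and 556 of the 840, 764, 695 and 1146 CPM summed over the list. Inhibitory receptor transcripts were found in 13.3%, 14.7%, 11.1% and 19.6% of members against 16.8%, 27%, 35.7% and 24.1% of B cells, lower than in B cells in all 4 libraries.

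Compared with CD4 T cells of the same library, CD8 T cells had more Ccl5, Nkg7 and naive genes and less of the costimulatory and regulatory program. UMIs were summed per library and cell type and tested with edgeR's quasi-likelihood test with the library as a block and Benjamini-Hochberg adjustment. Of 5035 genes, 170 (3.38%) were higher and 171 (3.4%) lower in CD8 T cells at an adjusted p under 0.05. The genes of either rule were left out. Since both cell types share each library's free RNA and pool of mice, every library served as its own control. Transcripts of other cells were not wholly even between them. Cd209a (-1.50), Ccr2 (-1.24), H2-Ab1 (-0.86), Lyz2 (-0.62), H2-Eb1 (-0.55) and Tyrobp (-0.51) were called lower in CD8 T cells, Kcnd2 (2.01) and Ly6c2 (1.84) higher. At least 2 UMIs of the 15 T cell genes outside the rule were found in 94.1%, 99.8%, 92.0% and 97.7% of CD4 cells. The part of other cells' transcripts was not tested. Cells of 1 library are not replicates, and n is 4 libraries. Without siCont replicate 1 the 341 calls became 156, and without siCont replicate 2 they became 125.

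Cytotoxic genes were among the largest rises. Of 20 listed, 8 had enough counts to be tested, and 4 of these were higher in CD8 T cells and none lower. Ccl5 (chr11:83525778-83530518, mm10) stood at 4710, 2883, 2090 and 3665 CPM in the CD8 cells of the 4 libraries and at 582, 543, 262 and 798 CPM in the CD4 cells. Every library was higher in CD8 T cells, by 2.69 ± 0.15 on the log2 scale (SE, n = 4 libraries, edgeR adjusted p = 5.06e-18), and B cells lay at 110 to 134 CPM. Nkg7 (chr7:43437073-43438249, mm10) stood at 855, 598, 407 and 398 CPM against 174, 188, 0 and 115 in CD4 cells, a log2 difference of 2.12 ± 0.19 (edgeR adjusted p = 3.79e-11). Its B cell level of at most 3.22 CPM makes it nearly free of background. Cst7, an inhibitor of granule proteases, was higher by 1.83 and the cathepsin Ctsw by 0.84, while Gzmk differed by -0.28 and was not called (edgeR adjusted p = 0.63). Gzmb had too few counts for the test, at 64.6, 31.8, 25.7 and 23.3 CPM in CD8 and 2.52, 0.726, 0 and 0 CPM in CD4 cells. It was higher in CD8 cells in all 4 libraries.

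Naive and recirculation genes were higher as well. Of 15 listed, 14 were tested, 7 were higher and none lower, and 12 had a positive log2 difference (median 0.56, against -0.00 over all genes). Dapl1, which marks naive and early memory CD8 T cells, stood at 79.3, 152, 72.1 and 137 CPM against 7.56, 22.5, 0 and 46.0 in CD4 cells (log2 difference 2.80 ± 0.26). B cells had 0.369 CPM or less. The chemokine receptor Ccr7 stood at 150, 375, 190 and 305 CPM against 27.7, 160, 140 and 192 (1.33). The transcription factor Lef1 stood at 270, 546, 407 and 422 CPM against 131, 273, 262 and 338 (log2 difference 0.92 ± 0.17, edgeR adjusted p = 0.000107). All 4 libraries had more of each in CD8 T cells. Tcf7 was 258, 398, 252 and 297 CPM against 214, 378, 175 and 499, with no call (0.07, edgeR adjusted p = 0.93).

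Receptors and lineage factors made up much of the rest. Klrd1, an NK receptor subunit also found on CD8 T cells, stood at 156, 214, 61.8 and 177 CPM against 30.2, 57.3, 0 and 15.3 (2.26). Cd7, a T cell surface protein, stood at 109, 155, 36.0 and 160 CPM against 27.7, 35.6, 0 and 30.7 (2.24), and Ly6c2, a marker of memory CD8 T cells that monocytes also carry, was higher by 1.84. Runx3, the transcription factor that silences Cd4 in this lineage, was higher by 0.88 ± 0.20, at 112, 125, 82.4 and 143 CPM against 68.0, 82.0, 69.9 and 30.7. Fam241a stood at 73.4, 240, 144 and 119 CPM against 7.56, 26.8, 0 and 0 (3.44). Ctnna2 was higher by 2.24 but at 273, 5.92, 118 and 64.0 CPM, and B cells followed it at 206, 10.5, 99.7 and 16.3 CPM.

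The lincRNA Gm44174 was seen only in the CD8 cells among these T cells, with 231 UMIs in CD8 and 0 in CD4 cells, which makes it at least 67.7-fold higher when 3 UMIs over all CD4 cells are taken as the limit. It stood at 120, 107, 51.5 and 102 CPM in CD8 T cells and at 1.49 CPM or less in B cells. It lies on the plus strand at chr6:71353035-71373284 (mm10), between Cd8b1 (chr6:71322788-71337494) and Cd8a (chr6:71373427-71379173), 142 bases from the annotated start of Cd8a. Since the rule used both neighbouring genes, its difference is not independent of the rule.

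The genes lower in CD8 T cells included those of helper and regulatory cells. All 6 tested of 11 listed CD4 lineage genes were lower. Tnfrsf4 (OX40, a costimulatory receptor) stood at 8.81, 8.13, 10.3 and 2.91 CPM against 68.0, 103, 52.4 and 46.0 in CD4 cells (log2 difference -3.29 ± 0.33, edgeR adjusted p = 3.23e-10). Ikzf2 (Helios, a regulatory T cell factor) had a log2 difference of -2.47, the nuclear receptor Rora of -2.35, the costimulatory receptor Icos of -1.81, the folate receptor Izumo1r of -1.94 and the inhibitory receptor Ctla4 of -1.60. Cd28, the receptor for the first costimulatory signal, stood at 55.8, 54.7, 5.15 and 37.8 CPM against 154, 173, 157 and 169 (-1.70 ± 0.21). Of 9 tested costimulatory genes 5 were lower and only Cd27 was higher, at 0.82. Of 14 tested memory and tissue residence genes 7 were lower and Ly6c2 and Runx3 higher, and of 12 chemokine receptor and migration genes, some of them on both lists, 6 were lower and Ccr7 higher. Itgb1 differed by -1.17, Itga4 by -1.15, Cxcr6 by -1.23, Cxcr3 by -1.08, S100a4 by -1.10 and Cd44 by -0.89. Maf, a factor of helper and gamma-delta T cells, differed by -2.01 and Nrp1 by -2.15.

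T cell identity itself was not the same in both. Of 15 genes outside the rule, 5 were lower in CD8 T cells (Cd5 at -1.44, Cd6 at -0.63, Cd247 at -0.59, Bcl11b at -0.58, Themis at -0.57) and Cd27 was higher. Lck did not pass (0.11, edgeR adjusted p = 0.83). Type I interferon genes were lower in 12 of 22 tested and negative in all 22 (Isg15, at -0.81, turned to 0.28 with DESeq2), with a median of -0.81, the largest being Oasl2 at -1.55 and Ifi27l2a at -1.48. In 5 of the 22, Ifi27l2a among them and Oasl2 and Isg15 not, CD8 T cells were lower in every library. Of all 5035 genes tested, 717 were lower in every library. Summed over the list, CD8 T cells stood at 3054 and 2685 CPM against 5382 and 6327 in CD4 cells in siCont, and at 643 and 873 against 681 and 967 in siFXR1-LNA, so the difference lay mainly in the siCont libraries. Cell cycle genes gave no call among 8.

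**Figure D3:**
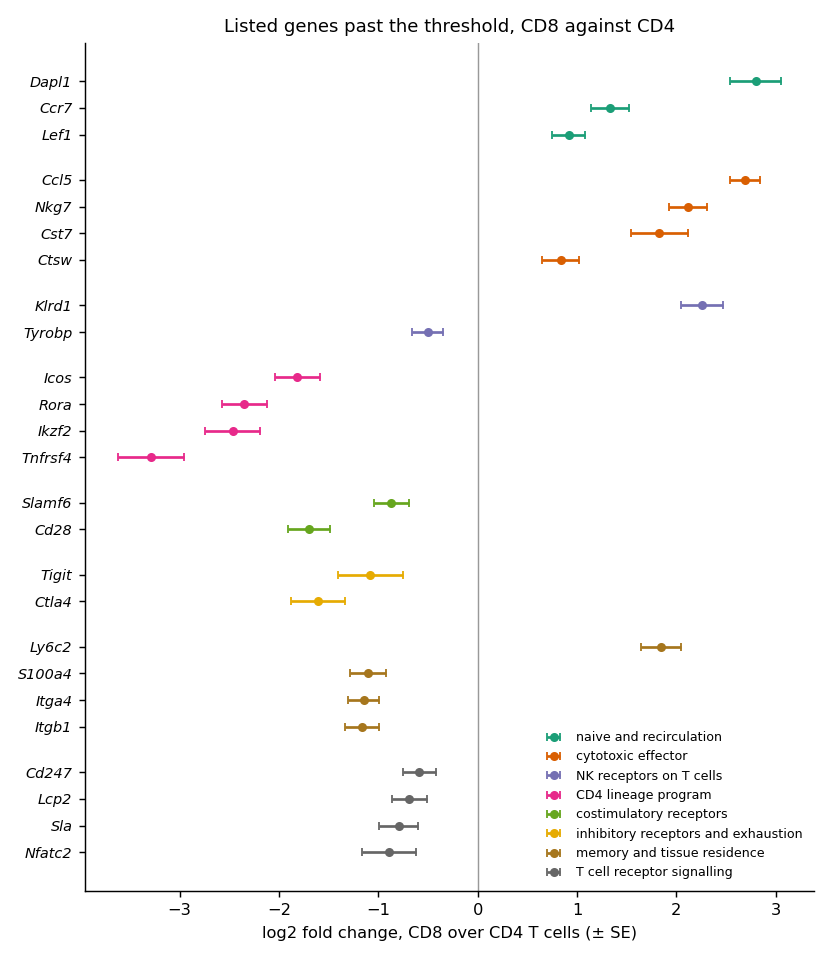
Log2 fold change of CD8 over CD4 T cells with its standard error for listed genes past the edgeR threshold, up to 4 per list and coloured by list, each fitted over 4 libraries. Naive and cytotoxic genes such as Dapl1 (2.80) and Ccl5 (2.69) lie to the right of 0, and CD4 lineage genes such as Tnfrsf4 (-3.29) to the left.

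The variable segments of the T cell receptor were spread over many genes. A UMI of a Trbv gene, which encodes the variable part of the beta chain, was found in 65.2%, 75.3%, 37.5% and 66.3% of members, from 19, 23, 15 and 20 of 35 segments. The most frequent segment took 14.9% (Trbv19), 13.6% (Trbv16), 10.0% (Trbv3) and 21% (Trbv15) of 168, 762, 40 and 181 Trbv UMIs. A different segment led in each library. Trbv16 was higher in CD8 than in CD4 T cells, at 52.9, 76.9, 20.6 and 40.7 CPM against 15.1, 31.9, 0 and 30.7 (log2 difference 1.41 ± 0.28, edgeR adjusted p = 0.000343). Trbv3 was lower, at 61.7, 56.2, 20.6 and 26.2 CPM against 202, 265, 0 and 30.7 (-1.78 ± 0.22, edgeR adjusted p = 1.36e-07), but in siFXR1-LNA replicate 1 no UMI of it was found in the 25 CD4 cells, so that library ran the other way. In siCont it made up 30.9% and 33.2% of the CD4 cells' Trbv UMIs. Near-identical segments can share reads, and the method counts the 3' end, so a segment is a partial readout of a clone.

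Between the libraries labelled siFXR1-LNA and siCont, the cytotoxic, naive and T cell receptor signalling genes gave no call, while interferon-stimulated genes such as Ifi27l2a and Isg15 were lower and genes such as Saa3, Chil3 and Vegfa higher. Of 5152 genes tested with edgeR over the 4 library sums, 28 (0.543%) were higher and 7 (0.136%) lower in siFXR1-LNA at an adjusted p under 0.05. Separately from the test, 24.1% of genes lay higher in both siFXR1-LNA libraries than in both siCont libraries, and 16.0% lower. The median log2 fold change over all genes was -0.02. The number called rose when a library was left out, to 293 without siCont replicate 1, 143 without siCont replicate 2, 79 without siFXR1-LNA replicate 1 and 57 without siFXR1-LNA replicate 2.

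The cytotoxic list gave no call among 10 tested genes (median log2 fold change -0.48). Of these, 4 lay lower and 2 higher without overlap, against 16.0% and 24.1% of all genes. Nkg7 stood at 855 and 598 CPM in siCont and at 407 and 398 in siFXR1-LNA, lower without overlap (-0.94 ± 0.31) and not past the threshold (edgeR adjusted p = 0.333). Ccl5 overlapped, at 4710 and 2883 against 2090 and 3665 CPM (-0.49 ± 0.37, edgeR adjusted p = 0.742). Gzmb stood at 64.6 and 31.8 against 25.7 and 23.3 CPM (-0.97 ± 0.51, edgeR adjusted p = 0.597). Prf1, with too few counts for the test, stood at 14.7 and 15.5 against 15.4 and 23.3 CPM.

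Naive genes gave no call among 14. Lef1 stood at 270 and 546 CPM against 407 and 422 (-0.12 ± 0.40, edgeR adjusted p = 0.977), Ccr7 at 150 and 375 against 190 and 305 (-0.23 ± 0.48) and Tcf7 at 258 and 398 against 252 and 297 (-0.38 ± 0.35). For Lef1 and Ccr7 the siFXR1-LNA libraries lay between the siCont libraries. T cell receptor signalling gave no call among 18 genes, cytokine receptors none among 22, chemokine receptors none among 12, costimulation none among 8 and inhibitory receptors none among 2. Without overlap, 9 signalling, 4 costimulatory and 5 chemokine receptor genes lay lower, against 16.0% of all genes (medians -0.47, -0.79 and -0.63). In this way 1 chemokine receptor gene lay higher, and 4 cytokine receptor genes lay lower and 4 higher, where 24.1% of all genes lay higher. Cd28 was lowest in siFXR1-LNA replicate 1, at 55.8 and 54.7 against 5.15 and 37.8 CPM (-1.27 ± 0.57, edgeR adjusted p = 0.536). Of the adhesion and cytokine receptor genes, Thy1 differed by -0.90, Itgb2 by -1.10, Itgal by -0.67, Il18r1 by 0.59 and Il18rap by 0.40, and none of them was called (edgeR adjusted p from 0.373 to 0.813). T cell identity genes were negative in 14 of 15 with no call (median -0.55), and 5 lay lower without overlap, against 16.0% of all genes. Their summed level was 2461, 3071, 1632 and 2365 CPM, lowest in siFXR1-LNA replicate 1.

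Type I interferon genes were lower across the list. All 23 tested of 25 had a negative log2 fold change (median -1.95), 20 lay lower without overlap between the groups against 16.0% of all genes, and 4 passed the test against 0.136%. Under the alternatives 2 to 15 passed and the median ran from -2.10 to -1.84. Ifi27l2a stood at 805 and 623 CPM in siCont and at 72.1 and 87.3 in siFXR1-LNA (-3.24 ± 0.34, edgeR adjusted p = 0.0124). Isg15, a ubiquitin-like modifier, stood at 238 and 144 against 41.2 and 26.2 CPM (-2.62 ± 0.42, edgeR adjusted p = 0.0436, past the threshold in 12 of 14 alternatives). Rsad2, the antiviral enzyme viperin, stood at 106 and 73.2 against 5.15 and 5.82 CPM (-4.02 ± 0.52, edgeR adjusted p = 0.0235), and Ifit1, which binds viral RNA, at 70.5 and 45.1 against 0 and 2.91 CPM, that is 24 and 61 UMIs against 0 and 1. The factor Irf7 (-1.99) and the signal transducer Stat2 (-1.97) were lower without overlap but not called. Genes of the interferon-gamma and MHC class I list were negative in all 23 tested, with no call and a smaller median of -0.86. Of these, 19 lay lower without overlap between the groups, against 16.0% of all genes.

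The same genes were lower in other cells of these libraries. Summed over the list, CD8 T cells stood at 3054, 2685, 643 and 873 CPM, CD4 T cells at 5382, 6327, 681 and 967, and B cells at 2896, 3383, 489 and 863. B cells had Ifi27l2a at 1097 and 1331 against 66.5 and 141 CPM. At least 2 interferon UMIs after thinning were found in 54.9%, 50.7%, 12.5% and 28.9% of CD8 T cells and in 54.5%, 49.6%, 9.32% and 21.6% of B cells, so both cell types followed the same order of libraries. Among the 7 lower genes, the mean level in CD8 T cells of siCont was 0.588 (Ifi27l2a) to 3.20 times (Ifit1) that in B cells of siCont. Ifit1 stood at 17.1 and 19.0 CPM in these B cells. The ratio was 1.54 for Ifit1bl1, 1.42 for Isg15 and 1.07 for Rsad2. How much of this was RNA of the T cells and how much free RNA was not tested.

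**Figure D4:**
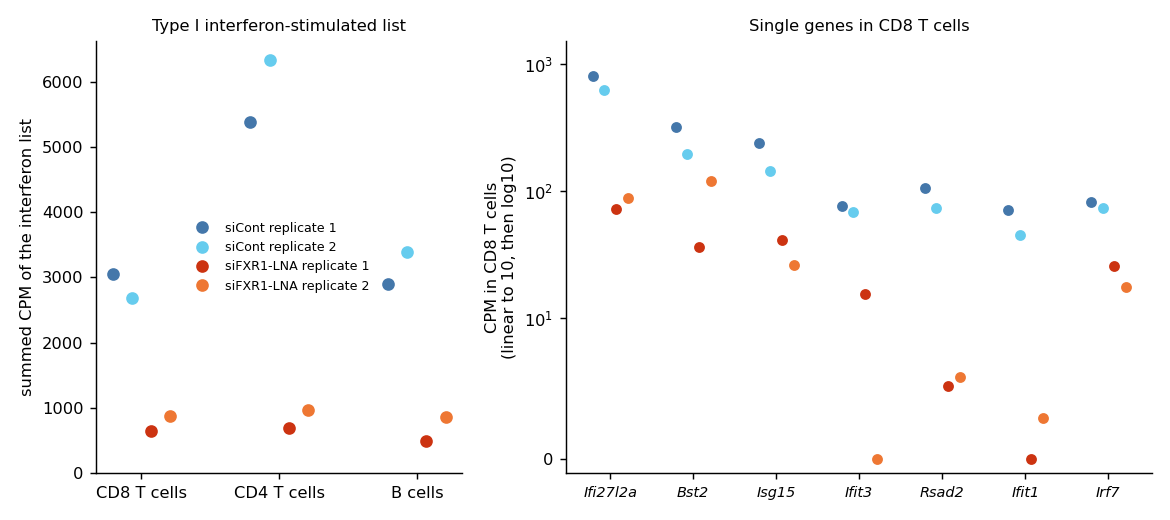
Summed CPM of the type I interferon list in CD8, CD4 and B cells (left) and CPM of 7 of its genes in CD8 T cells on an axis that is linear to 10 and logarithmic above (right), 1 point per library. Both siFXR1-LNA libraries lie below both siCont libraries in all 3 cell types and for all 7 genes.

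Letters of an interferon-stimulated response element stood in front of many genes of this list. The motif searched was GAAANNGAAA, or TTTCNNTTTC on the other strand, in the 250 bases before and 50 bases after each RefSeq start (GRCm38.p6). It was found in 13 of 22 promoters of listed genes (59.1%), which belong to 12 of 18 genes, against 3.44% of all 32851 promoters and 3.76% of the 5340 promoters of other genes tested in CD8 T cells. The sequences of the 3 called genes with a match are shown here because they are the genes whose level differed. They run in the direction of the gene, with only the first match in capitals. Isg15 had 3 matches, Ifit1 2 and Rsad2 1, and a further match of Isg15 overlaps the marked one. A match is a description of the letters and not of a bound site.
Isg15, chr4:156200879-156200904, minus strand, 78 bases before the start: tgccgtagGAAAAGGAAAccgaaaca
Ifit1, chr19:34640777-34640802, plus strand, 104 bases before the start: ggcttcagTTTCACTTTCcagtctca
Rsad2, chr12:26456555-26456580, minus strand, 120 bases before the start: ggtccaacTTTCATTTTCagaaaaca

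The 28 higher genes held 4 of the hypoxia and glycolysis list, 2 of the macrophage and monocyte list (Arg1 and Cd14) and 1 of the neutrophil list (Lcn2), and the others were on none of the lists. All 28 were higher without overlap in B cells of the same libraries too. In CD8 T cells 24.1% of all genes lay higher in this way, and the share over all genes in B cells was not computed. Saa3, an acute phase protein of macrophages and epithelium, stood at 88.1 and 75.4 CPM in siCont and at 5322 and 10081 CPM in siFXR1-LNA (log2 fold change 6.46 ± 0.46, edgeR adjusted p = 0.00277). B cells of the same libraries held 86.2 and 69.8 against 6029 and 10767 CPM. Chil3 (6.14), Lcn2 (6.07) and Wfdc21 (5.72), products of macrophages and neutrophils, followed, then Clec4e (4.92), Cxcl2 (4.91), Arg1 (4.49) and Cd14 (4.39). In the siFXR1-LNA libraries their level in CD8 T cells was a median of 0.896 times that in B cells (range 0.351 to 1.30), and 31.5% of that over all kept barcodes. Neutrophil markers summed to 47.0, 804, 1431 and 5404 CPM in members and 124, 924, 5249 and 4669 CPM in B cells. Of 12 such markers, 5, 11, 10 and 11 were detected in members.

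Hypoxia and glycolysis genes were among them. Of 21 tested of 23, 4 were higher, 19 were positive, and 18 lay higher without overlap against 24.1% of all genes (median 1.08). Vegfa, the endothelial growth factor, stood at 14.7 and 3.70 against 273 and 154 CPM (4.84 ± 0.60, edgeR adjusted p = 0.0206). Bnip3, a mitophagy receptor, stood at 5.87 and 9.61 against 226 and 183 CPM (4.40 ± 0.41, edgeR adjusted p = 0.00752). The oxidoreductase Ero1l rose by 3.96 and the oxygen-sensing hydroxylase Egln3 by 3.72, while Gapdh (0.95), Aldoa (1.08) and Ldha (0.58) were not called. Summed over the list, members stood at 4587, 3644, 9291 and 8333 CPM and B cells at 4577, 3615, 9985 and 9563.

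Mast cell proteases were lower. Cma1 stood at 402 and 234 against 25.7 and 32.0 CPM (-3.50), and B cells at 492 and 254 against 13.1 and 37.1. Cpa3 differed by -3.65 in CD8 T cells, and the 6 mast cell markers summed to 1401, 612, 118 and 140 CPM in members and 1499, 669, 98.5 and 137 in B cells. All 7 lower genes were lower without overlap in B cells. In CD8 T cells 16.0% of all genes lay lower in this way, and the share over all genes in B cells was not computed. Of the 5 mast cell markers tested, 4 were lower without overlap, while Kit, a receptor that mast cells share with progenitor cells, was higher at 32.3 and 14.1 against 56.6 and 37.8 CPM (1.06, edgeR adjusted p = 0.589, not called). In B cells Kit overlapped, at 35.4 and 12.0 against 53.4 and 16.3 CPM. The summed level of these markers moved with the group in both cell types, and its part in the results was not tested.

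**Figure D5:**
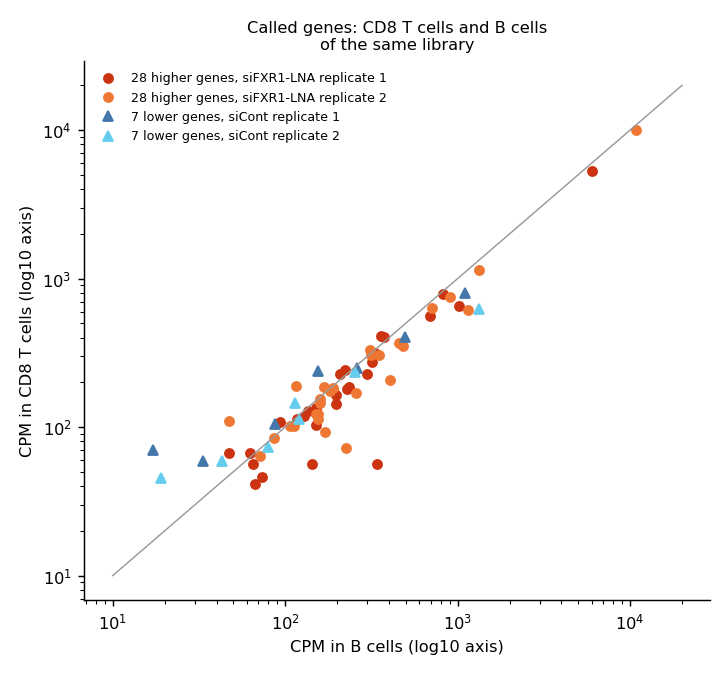
Level in CD8 T cells (y axis) against the level in B cells of the same library (x axis), both in CPM on log axes, for the 28 higher genes in the siFXR1-LNA libraries and the 7 lower genes in the siCont libraries; the line marks equal levels. Most points lie near the line, and the siCont points farthest above it are Ifit1, at 70.5 against 17.1 CPM and 45.1 against 19.0 CPM.

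The change with the label was then set against that in CD4 T cells. Of 6443 genes, 29 (0.45%) had a siFXR1-LNA change that differed between CD8 and CD4 T cells in edgeR's interaction test with the library as a block. DESeq2 called 0 of them, with 80 genes at an unadjusted p under 0.05. Il18r1, the receptor of interleukin 18, stood at 64.6 and 51.0 against 61.8 and 116 CPM in CD8 cells and at 144 and 205 against 69.9 and 130 in CD4 cells, a difference of 1.66 ± 0.43 on the log2 scale (edgeR adjusted p = 0.0346). Bach2, a factor that keeps T cells from effector fate, differed by -1.08. Genes of the interferon list were more often positive than negative here (17 against 6 of 23, median 0.93), and only Bst2 passed (2.19, but -0.11 without siFXR1-LNA replicate 2). Of all 6443 genes, 3631 were positive (median 0.096). Without 1 library the 29 calls became 4 to 23, the fewest without siFXR1-LNA replicate 2 (4) and siCont replicate 2 (6), and 18 without siCont replicate 1. The siFXR1-LNA arm of the CD4 cells held 25 and 44 cells.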

How the data were processed

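Single-cell RNA sequencing libraries (10x Genomics) of ascites cells were analysed for 2 siCont and 2 siFXR1-LNA samples. Per the labels, the authors used Cell Ranger 7.0.0 on mm10 to make the deposited files of whole-number UMI counts. These counts were not normalized, and barcodes outside the gene limits of the methods were still in them. Gene coordinates came from GENCODE vM21 (GRCm38), which held 99.6% of the identifiers, and promoter windows from the RefSeq table of GRCm38.p6.

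Members were taken by the rule from barcodes with 500 to 4800 genes. The members, the 30 gene lists and the tests were chosen with earlier results of these data known. Counts were summed per library and cell type, genes were filtered by filterByExpr, and the sums were tested in edgeR 4.0.16 (R 4.3.3) with TMM normalization, the quasi-likelihood test and Benjamini-Hochberg adjustment (threshold 0.05), leaving out the 11 genes of the rules. Library totals in the fits are over the genes that passed the filter, those of the rules included. Each SE is the size of the log2 fold change divided by the square root of the test's F. CPM are UMIs per 1000000 UMIs of the cell type in that library. Shares of cells were compared with two-sided exact permutation tests over the 4 libraries, after thinning to 1000 UMIs for transcripts. Intervals are exact Clopper-Pearson intervals at 95%. The library, a pool of several mice, was the replicate. Between the labels, p-values measure the spread between these pools. In the tests with the library as a block, they rest on how far the difference between CD8 and CD4 T cells varied from library to library. The quasi-likelihood test draws each gene's spread toward that of other genes. In the interaction test it did so almost wholly, so those p-values hardly measure a gene's own spread. The study compared single cells, which are not replicates. The functions behind the edgeR tests were tested on simulated data.

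Genes named were the 10 largest rises and falls among called genes that did not overlap, per list up to 4 called genes by p or otherwise the 2 highest, the markers, the Fragile X genes, T cell genes the study names and the 5 most counted Trbv and Trav genes. Aldoa, Gapdh, Ldha, Irf7, Stat2, Kit, Bcl11b, Cd44, Cxcr3, Izumo1r, Gzmk and Trbv15 fall outside that rule and were chosen after their values had been seen. Alternatives were DESeq2 1.42.0, no filter, other cell limits, left-out replicates and the replicate block. No doublet caller was run: the upper gene limit, the excluded markers and an alternative without the deepest 5% of members stand in for it. Free RNA was not corrected. B cells of the same library are given for comparison, but they can transcribe some of the listed genes themselves, so their level is not a measure of free RNA alone. Some genes of the lists, and the naive transcript share among the 5 share tests, are not reported here.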

Additional observations from a re-analysis of the deposited data

Results flagged for a closer look

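The change between the libraries labelled siFXR1-LNA and siCont differed between CD8 and CD4 T cells for 29 genes, by edgeR's interaction test with the library as a block. The values in parentheses are the log2 change in CD8 T cells minus that in CD4 T cells. Of all 6443 genes tested, 3631 were positive (median 0.096). Of 11 tested macrophage and monocyte markers 10 were positive (median 1.15), and Arg1 (2.58), Lyz2 (1.15) and Ly6c2 (1.72) passed. Neutrophil markers went the other way: 6 of 8 tested were negative (median -0.67), and Retnlg (-2.16) passed. Of 16 tested memory genes 12 were positive, and S100a6 (1.73), Anxa2 (1.17) and Ly6c2 passed. Of the other lists, Bst2 (2.19), Il18r1 (1.66), Maf (1.93) and Fcer1g (1.25) passed and were positive. Genes on no list that were more positive in CD8 T cells were Chil3 (2.66), Clec4n (4.96), Cybb (2.51), Itgam (2.25), Lgals3 (1.68), Alox5ap (1.75), Cst3 (1.48), Plac8 (3.56), Lgals3bp (3.05), Ifitm3 (1.46), Ifitm2 (1.12), Ahnak (1.21), Flna (1.61) and Fam129a (2.59). The change was also more negative in CD8 T cells for Kcnq5 (-2.15), Thada (-1.26), Inpp4b (-0.999), Bach2 (-1.08) and H2-DMb2 (-3.64).

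In siFXR1-LNA replicate 1, where 25 CD4 cells were found, Plac8 stood at 0 CPM in CD4 cells and at 92.6 CPM in CD8 cells, and Lgals3bp at 0 and 46.3 CPM. Maf stood at 17.6 and 11.8 CPM against 87.5 and 66.9 CPM in the CD8 cells, and B cells followed at 35.2 and 9.24 against 51.1 and 66.9 CPM. Ly6c2 stood at 1498 and 795 against 216 and 634 CPM in CD8 cells and at 302 and 453 against 34.9 and 69.1 CPM in CD4 cells. DESeq2 called none of these differences, with 80 genes at an unadjusted p under 0.05 against 455 by edgeR. The part of the small CD4 samples in these differences was not tested.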

How the results depend on the processing

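The number of genes called between the labels in CD8 T cells moved with the setting: 35 as reported, 62 with DESeq2, 268 with no filter on low counts, 58 with at least 2 UMIs of each marker pair and 75 without the deepest 5% of members. It was 293 without siCont replicate 1, 143 without siCont replicate 2, 79 without siFXR1-LNA replicate 1 and 57 without siFXR1-LNA replicate 2, a range of 57 to 293. All 35 genes kept their sign wherever they were tested. The replicate numbers pair nothing in the labels; with the replicate block 172 genes were called, and deviations of same-numbered libraries correlated at 0.27. CD8 against CD4 T cells gave 341 calls, 99 with DESeq2, 52 with at least 2 UMIs of each marker pair and 125 to 404 with a replicate left out, the lowest without siCont replicate 2 and 156 without siCont replicate 1. The 29 differences between CD8 and CD4 T cells were the least stable: 0 with DESeq2, 3 with no filter, 14 with at least 1000 genes, 14 with at least 2 UMIs of each marker pair, 14 without the deepest 5%, 7 without cells holding 7 further markers, 17 without hemoglobin and other-cell genes, and 4 to 23 with a replicate left out (18 and 6 without siCont replicates 1 and 2, 23 and 4 without those of siFXR1-LNA).

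The CD8 share against CD4 T cells differed by 26.4 points, 17.9 with at least 2 UMIs of each marker pair, 22.6 with the rule applied after thinning and 23.8 to 29.0 with a replicate left out. Proliferation transcripts differed by -12.7 points, -24.1 when thinned to 2000 UMIs, -5.45 when thinned to 500, -19.8 with no thinning and -19.1 to -6.27 with a replicate left out. The share of kept barcodes ranged from -3.68 to -0.190 points and that of effector transcripts from -6.33 to 12.3, so the last direction rests on 1 siCont library. Requiring at least 2 UMIs of the T cell list, chosen after seeing the data, gave 48, 333 and 24 calls in the 3 tests.

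Among named genes that were called, signs turned in CD8 against CD4 T cells with at least 2 UMIs of each marker pair (Tyrobp 0.0436, H2-Eb1 0.0758, Lyz2 0.0012), without the deepest 5% (H2-Eb1 0.0243) and with DESeq2 (Isg15 0.28). In the difference between cell types they turned for Bst2 (-0.11 without siFXR1-LNA replicate 2, up to 3.55 without another) and Retnlg (1.06 with at least 2 UMIs of each marker pair). The other values for called named genes kept their direction, 1002 on the same side of the threshold and 312 no longer past it. Named genes that were not called are outside these counts, and some of them turned. Between the labels, Ccr7 kept its sign in 12 of 14 alternatives (-0.76 to 0.68), Hmgb2 in 10 of 14 and Lef1 in 13 of 14. The cause was not tested. Transcripts under about 3 UMIs per library could not be compared at this depth.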

Other observations

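Stress programs of CD8 T cells gave no call between the labels. Of 15 tested immediate early genes, which any handling or stimulus switches on, 10 were positive and 8 lay higher in both siFXR1-LNA libraries without overlap, against 24.1% of all genes (median log2 fold change 0.28), with none past the edgeR threshold. Jund, an AP-1 subunit, was the highest of them by level and differed by 0.95 ± 0.30 (edgeR adjusted p = 0.309). Heat shock genes gave no call among 9 (median 0.14), with Hspa8 at -0.72 and Hsp90ab1 at -0.15. Survival genes gave none among 10 (median -0.14), with Bcl2 at 0.15 and Mcl1 at 0.12.

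Transcripts of tumor or mesothelial cells were found in CD8 T cells of every library, at 1210, 173, 916 and 532 CPM over 10 genes, and in B cells at 960, 219, 845 and 585 CPM. Both cell types followed 1 order of libraries, which did not follow the labels.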
